A study of Mus musculus with 15 samples.

Results

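The expression of 10 genes for bile acid and organic anion transporters was followed in mouse liver, among 19938 genes measured on the same arrays. They were taken by symbol (Slc10a1, Slco1a1, Slco1a4, Slco1b2, Abcb11, Abcb4, Abcc2, Abcc3, Abcc4 and Slc51b), and each was read by 1 probe set, so all 10 are accounted for. RNA from whole liver was hybridised to Affymetrix whole-transcript arrays, 1 array per mouse, with 3 mice in each of 5 groups. The mice had a C57BL/6 background, were 8 weeks old and were all labelled male. NEMO/Jnk1 DKO mice lacked Jnk1 in every cell (global Jnk1-/-) and NEMO in hepatocytes, and NEMO/Jnk2 DKO mice lacked Jnk2 in every cell (global Jnk2-/-) and NEMO in hepatocytes. In both, loxP-flanked NEMO was removed by Cre driven from the albumin promoter (Alb-cre), which is active in hepatocytes, whereas the Jnk deletions were global. Jnk1 KO and Jnk2 KO mice carried the same global Jnk deletions without the loss of NEMO. The WT mice were NEMO floxed/floxed, with NEMO and both Jnk genes intact. No group analysed here lacked NEMO alone, so the loss of NEMO was read on the Jnk-null backgrounds. NEMO is the regulatory subunit of the kinase complex that activates NF-kB, and JNK1 and JNK2 are stress-activated kinases. All values are log2 expression levels, and a difference is one of mean log2 levels, given with the standard error (SE) that limma estimated.

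Bile acids circulate between liver and gut. Hepatocytes take them up from sinusoidal blood through a sodium-dependent carrier and several organic anion carriers, and export them across the canalicular membrane into bile by ATP-driven pumps. Other pumps on the basolateral membrane can return bile acids and conjugates to the blood when bile flow is impaired. The uptake carriers here were Slc10a1 (NTCP, the sodium-taurocholate carrier) and Slco1a1, Slco1a4 and Slco1b2 (organic anion transporting polypeptides, which also carry hormones and drugs). The canalicular exporters were Abcb11 (BSEP, the bile salt export pump), Abcb4 (MDR2, the phosphatidylcholine floppase) and Abcc2 (MRP2, which exports conjugates such as bilirubin glucuronides). The basolateral exporters were Abcc3 (MRP3), Abcc4 (MRP4) and Slc51b (the beta subunit of the organic solute transporter). The nuclear receptor FXR (Nr1h4), activated by bile acids, is a known regulator of several of these genes, Abcb11 among them.

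The upstream sequences of 4 genes are shown because the results turn on them: Slco1b2, Abcb11 and Slco1a4 fell in NEMO/Jnk2 DKO relative to WT, and Slco1a1 had the widest range over the arrays. Slco1b2, Slco1a4 and Slco1a1 follow each other in this order on chromosome 6, within a run of 6 Slco1 genes. The 250 bases before each annotated gene start are given 5′ to 3′ as RefSeq has them (GRCm38.p6). Capitals mark a match to AGNNCANTGNNCT, searched on both strands, a loose form of the inverted repeat AGGTCANTGACCT that FXR binds together with RXR. The loose form was searched after the exact form had matched no transporter.
Slco1b2, chr6:141629268-141629517, plus strand: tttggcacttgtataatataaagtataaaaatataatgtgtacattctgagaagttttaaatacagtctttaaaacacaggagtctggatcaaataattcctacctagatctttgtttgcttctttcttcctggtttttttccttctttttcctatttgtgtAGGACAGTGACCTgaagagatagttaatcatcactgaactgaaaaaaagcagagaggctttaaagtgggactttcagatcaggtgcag
Abcb11, chr2:69342617-69342866, minus strand: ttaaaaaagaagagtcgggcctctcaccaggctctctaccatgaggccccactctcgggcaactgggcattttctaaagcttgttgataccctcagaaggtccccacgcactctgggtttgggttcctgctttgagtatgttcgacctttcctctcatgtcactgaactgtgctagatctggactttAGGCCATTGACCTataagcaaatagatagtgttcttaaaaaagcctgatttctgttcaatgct
Slco1a4, chr6:141856221-141856470, minus strand: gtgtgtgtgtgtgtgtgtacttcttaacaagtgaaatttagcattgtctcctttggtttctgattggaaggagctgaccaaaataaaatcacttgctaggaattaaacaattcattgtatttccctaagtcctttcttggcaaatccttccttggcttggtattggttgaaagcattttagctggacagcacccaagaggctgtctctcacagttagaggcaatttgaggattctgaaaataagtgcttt
Slco1a1, chr6:141946963-141947212, minus strand: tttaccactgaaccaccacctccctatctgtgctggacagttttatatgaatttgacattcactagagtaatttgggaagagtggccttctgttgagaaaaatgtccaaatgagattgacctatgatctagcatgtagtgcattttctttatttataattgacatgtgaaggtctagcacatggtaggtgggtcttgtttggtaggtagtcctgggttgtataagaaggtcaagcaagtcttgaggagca
The loose repeat occurred in 2 of the 9 transporters that have an upstream sequence in the RefSeq table, Slco1b2 and Abcb11, and in 0.588% of all 32851 upstream windows of that length. Its first base lies 88 bases before the start of Slco1b2 and 63 bases before that of Abcb11. The exact repeat was in 0.00609% of the windows. Of other motifs searched on both strands, the AP-1 site TGANTCA (6.75% of windows) was found upstream of Slc51b. The antioxidant response element TGACNNNGC (10.2%) was found upstream of Abcc2 and Abcc4, and the STAT site TTCNNNGAA (7.02%) upstream of Slc10a1, Slc51b and Slco1b2. The NF-kB site (3.90%) matched none of the 9 windows. A match describes the letters only, and neither a match nor its absence tells whether a factor binds there.

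Some arrays limited how the groups could be read. Mapk9 (JNK2) was lower by 4.57 on the log2 scale in Jnk2 KO and by 4.83 in NEMO/Jnk2 DKO than in WT, and Mapk8 (JNK1) by 0.87 in Jnk1 KO and by 0.88 in NEMO/Jnk1 DKO. Mapk8 was at 6.53 in NEMO/Jnk1 DKO replicate 3, against 5.97 and 5.87 in replicates 1 and 2. In Jnk1 KO it was at 6.06, 6.23 and 6.12. The lowest values with Jnk1 intact were 6.58, in Jnk2 KO replicate 3 and NEMO/Jnk2 DKO replicate 3. The arrays labelled Jnk1 KO replicate 1 and Jnk2 KO replicate 3 went against their NEMO-intact label. Ikbkg (NEMO) was at 6.75 in the first and 6.24 in the second of these 2 arrays, within the 6.18 to 6.85 of the 6 double-knockout arrays and below the 7.03 to 7.41 of the other 7 NEMO-intact arrays. Mmp12, a macrophage protease, was at 8.66 in the first and 8.20 in the second, against 3.69 to 4.88 in those 7. They are called the doubted arrays, and results are given with all arrays as labelled and without them. In addition, 3 arrays labelled male (NEMO/Jnk1 DKO replicates 1 and 2 and Jnk1 KO replicate 1) had Xist at 8.68 to 9.17, against 2.40 to 2.82 in the other 12, and Y-linked genes at a mean of 2.75 to 2.98, against 6.79 to 7.26. These are called the female-pattern arrays, and a fit with a term for the pattern is given where it moves a result.

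Hepatocyte markers were at similar summed levels in all groups, while macrophage and stellate markers were higher in the double knockouts than in WT. The log2 of the summed level of the 8 measured hepatocyte markers, such as Alb and Apoa1, was 15.83 to 15.86 in NEMO/Jnk1 DKO and 15.82 to 15.88 in NEMO/Jnk2 DKO, against 15.81 to 15.89 in WT. The summed level of the 10 macrophage markers was 11.19 to 11.70 in NEMO/Jnk1 DKO and 11.04 to 11.63 in NEMO/Jnk2 DKO, against 9.61 to 10.40 in WT. That of the 10 stellate and fibroblast markers was 11.87 to 12.15 in NEMO/Jnk1 DKO and 11.75 to 12.001 in NEMO/Jnk2 DKO, against 10.62 to 10.998 in WT. Sinusoidal endothelium markers overlapped WT (10.75 to 11.20), at a summed level of 11.10 to 11.44 in NEMO/Jnk1 DKO and 10.91 to 11.15 in NEMO/Jnk2 DKO. The 16 acute-phase genes stood at 15.22 to 15.81 in NEMO/Jnk2 DKO and 15.28 to 15.74 in Jnk2 KO, against 14.87 to 14.98 in WT. Fgb and Hpx are on both the hepatocyte and the acute-phase list. The part of these markers in the transporter results was not tested, and in whole tissue fewer cells of a type and less RNA per cell cannot be told apart.

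Lower expression of uptake carriers was the main difference among the transporters relative to WT. As labelled, 2 of the 4 uptake carriers fell in NEMO/Jnk2 DKO (1.76% of all genes did) and 0 in NEMO/Jnk1 DKO (0.0351% did). Without the doubted arrays 3 of 4 fell in each, where 4.86% of all genes fell in NEMO/Jnk2 DKO and 2.99% in NEMO/Jnk1 DKO. NEMO/Jnk1 DKO replicates 1 and 2 have the female pattern, and a fit with a sex term is given below. With all arrays as labelled, Slco1a4, Slco1b2 and Abcb11 fell in NEMO/Jnk2 DKO relative to WT and no transporter rose, which is 3 of 10, where 2.63% of all genes passed the same test (1.76% down). The median difference of the 10 in this comparison was -0.50, beside -0.04 over all genes. Relative to WT, NEMO/Jnk1 DKO had 0 of 10 passing (limma adjusted p under 0.05), where 0.0652% of all genes did. An unadjusted p under 0.05 was found there for 5 of the 10 and for 3256 of 19938 genes. These 2 comparisons share the WT arrays. All 4 uptake carriers had lower means than WT in NEMO/Jnk1 DKO, in NEMO/Jnk2 DKO, in Jnk1 KO and in Jnk2 KO, although only those named as passing were called.

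Leaving out the 2 doubted arrays, which belong to neither side of these comparisons but add to the shared estimate of the spread, raised the number of calls. NEMO/Jnk2 DKO then had 4 transporters lower than WT (Slc10a1, Slco1a4, Slco1b2 and Abcb11), with 10.6% of all genes called (4.86% down). NEMO/Jnk1 DKO had 3 lower (Slc10a1, Slco1a1 and Slco1b2) and 1 higher (Abcc4), with 7.91% of all genes called (2.99% down and 4.92% up). A sex term in the fit without the doubted arrays left the 4 calls of NEMO/Jnk2 DKO relative to WT, with 10.5% of all genes called, and 0 for NEMO/Jnk1 DKO, with 1.31% called. The estimate for NEMO/Jnk1 DKO then rests on its replicate 3 alone, the array with the highest Mapk8 of the Jnk1-null groups.

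**Figure D1:**
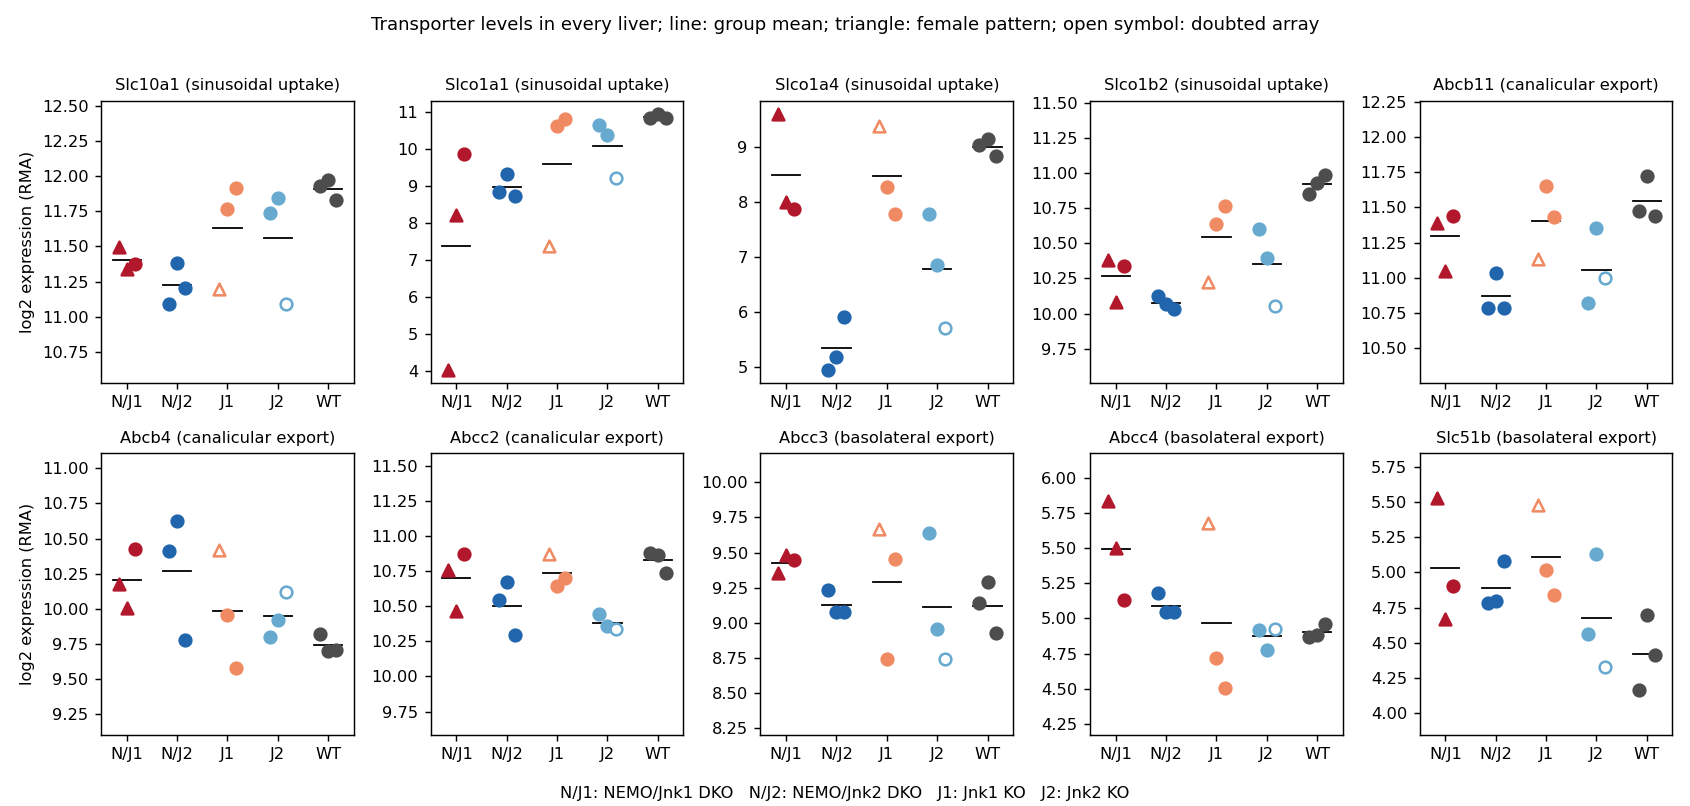
Log2 expression of each transporter in every liver (1 point per array, 3 per group; line, group mean; each panel has its own axis), with NEMO/Jnk1 DKO (N/J1), NEMO/Jnk2 DKO (N/J2), Jnk1 KO (J1), Jnk2 KO (J2) and WT from left to right. Triangles are the female-pattern arrays and open symbols the 2 doubted arrays. Slco1a4 was at 4.96 to 5.91 in NEMO/Jnk2 DKO against 8.82 to 9.14 in WT, and the lowest Slco1a1 value, 4.03, was in a female-pattern NEMO/Jnk1 DKO array.

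Slco1a4, an uptake carrier known to be higher in female than in male mouse liver, separated the genotypes most. It was at 4.96, 5.18 and 5.91 in NEMO/Jnk2 DKO, against 9.03, 9.14 and 8.82 in WT. In NEMO/Jnk1 DKO it was at 9.59, 8.00 and 7.87, in Jnk1 KO at 9.38, 8.26 and 7.77, and in Jnk2 KO at 7.77, 6.86 and 5.71. Every NEMO/Jnk2 DKO array lay below every WT and every NEMO/Jnk1 DKO array, and the lowest Jnk2 KO value was the doubted one. The group means, from high to low, were WT (8.998 ± 0.16, SD, n = 3), NEMO/Jnk1 DKO (8.48 ± 0.96), Jnk1 KO (8.47 ± 0.82), Jnk2 KO (6.78 ± 1.03) and NEMO/Jnk2 DKO (5.35 ± 0.50). Neighbours in this order overlapped in each case. The highest value in each Jnk1-null group, 9.59 and 9.38, came from a female-pattern array, while the remaining array with that pattern was at 8.00.

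Slco1a4 fell in NEMO/Jnk2 DKO relative to WT by 3.65 (SE 0.54, limma adjusted p = 0.0062, lower in 3 of 3 arrays). It passed in 18 of 18 settings tried for this comparison, with a log2 difference between -3.93 and -3.45 and an adjusted p between 8.67e-05 and 0.0401. The difference of NEMO/Jnk1 DKO from WT was -0.51 (SE 0.54, limma adjusted p = 0.68). Between the double knockouts themselves it was the one transporter called, where 0.105% of all genes were (0.0451% up). It was higher in NEMO/Jnk1 DKO than in NEMO/Jnk2 DKO by 3.14 (SE 0.54, limma adjusted p = 0.044), and without the 2 doubted arrays the adjusted p was 0.0026, where 0.321% of all genes passed (0.181% up). With the sex term and all arrays the difference was 2.37 (SE 0.57, adjusted p = 0.30), where 0.0752% passed. It also missed the threshold whenever 1 array of either group was left out (2.58 to 3.44, adjusted p from 0.0573 to 0.269).

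A lower Slco1a4 level was also measured in Jnk2 KO, with NEMO intact. Its difference from WT was -2.22 (SE 0.54, limma adjusted p = 0.097), with 3 of 3 arrays below all WT arrays. With the sex term the adjusted p was 0.046, where 0.787% of all genes passed. Without the 2 doubted arrays the difference was -1.68 (SE 0.44, adjusted p = 0.092), where 1.24% passed. In Jnk1 KO relative to WT it was -0.53 (SE 0.54, limma adjusted p = 0.89). NEMO/Jnk2 DKO differed from Jnk2 KO by -1.43 (SE 0.54, limma adjusted p = 0.57) as labelled, and was lower by 1.97 (SE 0.44, adjusted p = 0.018) without the doubted arrays. NEMO/Jnk1 DKO differed from Jnk1 KO by 0.01 (SE 0.54, limma adjusted p = 0.998) as labelled and by 0.47 (SE 0.44, adjusted p = 0.70) without them. The difference between these NEMO effects was 1.44 (SE 0.76, limma adjusted p = 0.9996), or 2.43 (SE 0.62, adjusted p = 0.33) without the doubted arrays, so the effects were not shown to differ.

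Slco1a1, an uptake carrier known to be higher in male than in female mouse liver, had the widest range of the 10, 4.03 to 10.94. It was at 4.03, 8.20 and 9.87 in NEMO/Jnk1 DKO and at 8.83, 9.31 and 8.72 in NEMO/Jnk2 DKO, against 10.82, 10.94 and 10.84 in WT. In Jnk1 KO it was at 7.37, 10.61 and 10.80, and in Jnk2 KO at 10.65, 10.36 and 9.22. All double-knockout arrays lay below all WT arrays, and the 3 lowest values of the 15 were those of the female-pattern arrays. The doubted arrays held the lowest value of their groups. The log2 summed level of the 9 male-biased liver genes listed was 8.96 to 12.44 in NEMO/Jnk1 DKO and 12.14 to 12.70 in NEMO/Jnk2 DKO, against 13.07 to 13.67 in WT, and its part in the Slco1a1 result was not tested.

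The spread of Slco1a1 within the Jnk1-null groups (SD 3.01 in NEMO/Jnk1 DKO and 1.93 in Jnk1 KO, against 0.06 in WT) was the widest among the groups. NEMO/Jnk1 DKO differed from WT by -3.50 (SE 1.14, limma adjusted p = 0.16), and without the 2 doubted arrays the adjusted p was 0.043. It was -1.83 (adjusted p = 0.40) without NEMO/Jnk1 DKO replicate 1, and -4.75 (adjusted p = 0.11) without replicate 3. With the sex term and all arrays the difference was -1.14 (SE 0.88, adjusted p = 0.91). NEMO/Jnk2 DKO, which held no female-pattern array, differed from WT by -1.91 (SE 1.14, limma adjusted p = 0.41). The same -1.91 had an SE of 0.29 and an adjusted p of 0.0071 in a fit without the 3 female-pattern arrays, and an adjusted p of 0.00036 in a fit to these 2 groups alone. The pattern term itself, female minus male, was -3.54 for Slco1a1 (SE 0.76, limma adjusted p = 0.088) and 1.14 for Slco1a4 (SE 0.49, adjusted p = 0.42), where 0.301% of all genes passed.

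**Figure D2:**
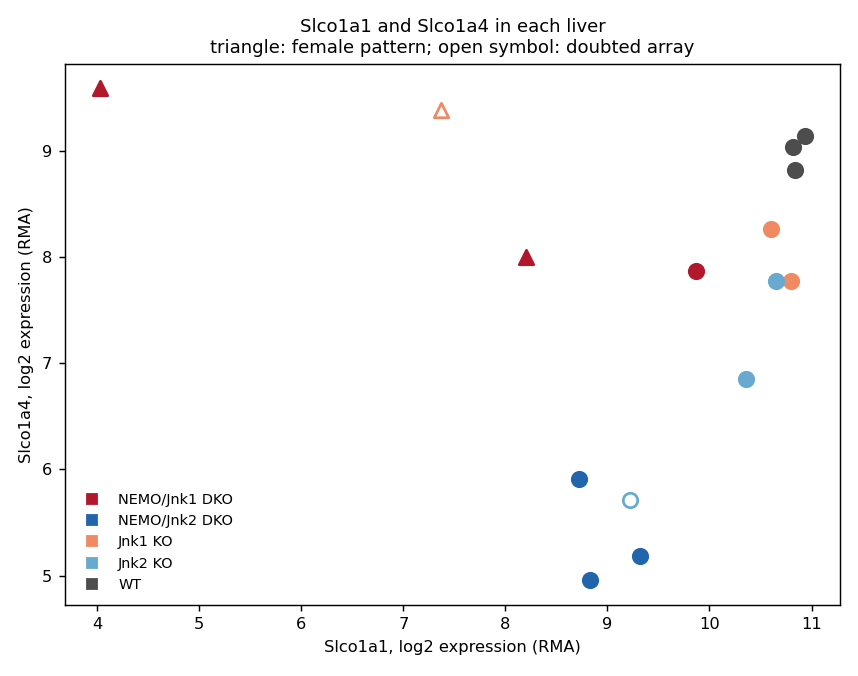
Log2 expression of Slco1a1 (horizontal axis) against Slco1a4 (vertical axis), 1 point per array, coloured by group; triangles are the female-pattern arrays and open symbols the 2 doubted arrays. The 3 NEMO/Jnk2 DKO arrays lie low in both genes relative to WT, with Slco1a4 at 4.96 to 5.91, and the female-pattern arrays lie low in Slco1a1 (4.03 to 8.20) with Slco1a4 at 8.00 to 9.59.

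Slco1b2, the rodent liver OATP1B carrier of bile acids and bilirubin, was lower by smaller steps but with little spread. It was at 10.38, 10.08 and 10.34 in NEMO/Jnk1 DKO and at 10.13, 10.07 and 10.03 in NEMO/Jnk2 DKO, against 10.85, 10.93 and 10.99 in WT. In Jnk1 KO it was at 10.22, 10.64 and 10.76, and in Jnk2 KO at 10.60, 10.39 and 10.05. WT lay above all 12 other arrays, and the doubted arrays were again the lowest of their groups. The fall in NEMO/Jnk2 DKO was 0.85 (SE 0.15, limma adjusted p = 0.014). It missed the threshold without NEMO/Jnk2 DKO replicate 1 (-0.87, adjusted p = 0.063), WT replicate 2 (-0.84, adjusted p = 0.066) or WT replicate 3 (-0.81, adjusted p = 0.053). NEMO/Jnk1 DKO differed from WT by -0.66 (SE 0.15, limma adjusted p = 0.096), and passed without the doubted arrays (adjusted p = 0.0014). With the sex term and all arrays, the doubted ones included, the difference was -0.46 (adjusted p = 0.82). The pattern term itself, female minus male, was -0.29 for Slco1b2 (SE 0.14) in that fit. Without the doubted arrays, of which Jnk1 KO replicate 1 has the female pattern, the term was -0.11 (SE 0.15).

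Slc10a1 followed the same order of groups as Slco1b2, with WT highest and NEMO/Jnk2 DKO lowest. It was at 11.50, 11.34 and 11.37 in NEMO/Jnk1 DKO and at 11.09, 11.38 and 11.20 in NEMO/Jnk2 DKO, against 11.93, 11.97 and 11.83 in WT. In Jnk1 KO it was at 11.20, 11.77 and 11.92, and in Jnk2 KO at 11.74, 11.84 and 11.09. The double-knockout arrays lay below all WT arrays, whereas 1 array of each single knockout reached the WT range and the doubted arrays, at 11.20 and 11.09, were the lowest of their groups. NEMO/Jnk2 DKO differed from WT by -0.68 (SE 0.19, limma adjusted p = 0.076) and NEMO/Jnk1 DKO by -0.51 (SE 0.19, adjusted p = 0.22). Without the doubted arrays the adjusted p was 0.00062 for NEMO/Jnk2 DKO and 0.0058 for NEMO/Jnk1 DKO. With the sex term and all arrays, 0 of 10 transporters passed in NEMO/Jnk1 DKO relative to WT, where 0.0150% of all genes did. Over 18 settings the Slc10a1 difference of NEMO/Jnk1 DKO from WT was between -0.55 and -0.31, and it passed in 2.

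Against the matching single knockouts, the calls of uptake carriers depended on the doubted arrays. As labelled, 0 of 10 transporters passed between NEMO/Jnk1 DKO and Jnk1 KO (limma), where 0% of all genes did, and 0 of 10 between NEMO/Jnk2 DKO and Jnk2 KO, where 0.00502% did. In each of these comparisons 1 transporter had an unadjusted p under 0.05, as did 908 of 19938 genes in the first and 1578 in the second. Without the doubted arrays, NEMO/Jnk1 DKO had lower Slc10a1 (-0.44, SE 0.11, limma adjusted p = 0.033) and lower Slco1b2 (-0.43, SE 0.11, adjusted p = 0.039) than Jnk1 KO. With Abcc4, described below, this made 3 of 10, where 5.18% of all genes passed (1.13% down and 4.05% up). NEMO/Jnk2 DKO had lower Slc10a1 (-0.56, SE 0.11, limma adjusted p = 0.0074), Slco1b2 (-0.42, SE 0.11, adjusted p = 0.042) and Slco1a4 than Jnk2 KO, 3 of 10, where 5.85% of all genes passed (1.98% down). A sex term in this fit kept the 3 calls in NEMO/Jnk2 DKO, where 5.76% of all genes passed, and made 0 calls in NEMO/Jnk1 DKO, where 1.21% did.

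**Figure D3:**
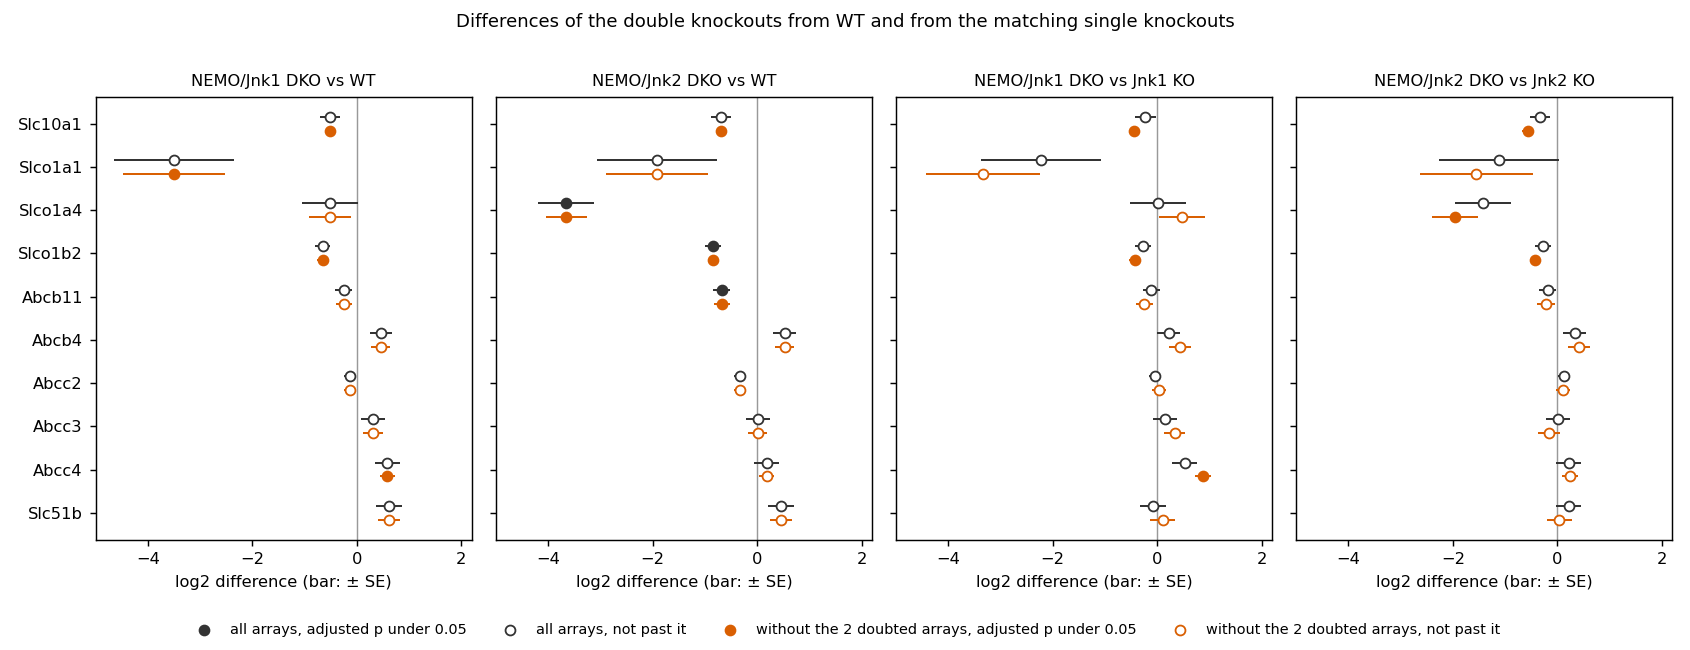
Log2 differences (points) with their SE (bars) of the 10 transporters in NEMO/Jnk1 DKO and NEMO/Jnk2 DKO relative to WT (left panels) and to the matching single knockouts (right panels), with all arrays (dark) and without the 2 doubted arrays (orange); filled points passed the limma test at an adjusted p under 0.05. Slco1a4 lies at -3.65 in NEMO/Jnk2 DKO against -0.51 in NEMO/Jnk1 DKO relative to WT, and the differences of the exporters are under 1 in size in every panel.

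Among the canalicular exporters, Abcb11, the pump that limits bile acid secretion, fell in NEMO/Jnk2 DKO. It was at 10.79, 11.04 and 10.78 in NEMO/Jnk2 DKO, against 11.47, 11.73 and 11.44 in WT, with no overlap. In NEMO/Jnk1 DKO it was at 11.39, 11.05 and 11.44, in Jnk1 KO at 11.13, 11.65 and 11.43, and in Jnk2 KO at 10.82, 11.35 and 10.999. The difference between NEMO/Jnk2 DKO and WT was -0.68 (SE 0.16, limma adjusted p = 0.046), and without the doubted arrays the adjusted p was 0.011. The call was at the edge of the threshold: it was lost when any 1 array of NEMO/Jnk2 DKO or WT was left out (-0.76 to -0.59, adjusted p from 0.0706 to 0.166). NEMO/Jnk1 DKO differed from WT by -0.25 (SE 0.16, limma adjusted p = 0.47). NEMO/Jnk1 DKO lay above NEMO/Jnk2 DKO in all arrays, by 0.43 (SE 0.16, limma adjusted p = 0.75).

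Abcb4 had its highest means in the double knockouts and its lowest in WT, and passed in none of the 9 comparisons. It was at 10.18, 10.01 and 10.42 in NEMO/Jnk1 DKO and at 10.41, 10.63 and 9.78 in NEMO/Jnk2 DKO, against 9.82, 9.70 and 9.71 in WT. In Jnk1 KO it was at 10.42, 9.95 and 9.58, and in Jnk2 KO at 9.80, 9.92 and 10.12. All NEMO/Jnk1 DKO arrays lay above WT, but not all of NEMO/Jnk2 DKO, since NEMO/Jnk2 DKO replicate 3 fell within the WT range. The differences from WT were 0.46 in NEMO/Jnk1 DKO (SE 0.22, limma adjusted p = 0.31) and 0.53 in NEMO/Jnk2 DKO (SE 0.22, adjusted p = 0.20). Its neighbours in the order of group means all overlapped.

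Abcc2 had the narrowest range among the canalicular exporters and was lowest in Jnk2 KO. It was at 10.76, 10.46 and 10.87 in NEMO/Jnk1 DKO, at 10.54, 10.67 and 10.29 in NEMO/Jnk2 DKO, at 10.87, 10.64 and 10.70 in Jnk1 KO and at 10.44, 10.36 and 10.34 in Jnk2 KO, against 10.88, 10.86 and 10.74 in WT. The Jnk2 KO arrays lay below all WT and all Jnk1 KO arrays. The difference from WT was -0.44 (SE 0.12, limma adjusted p = 0.13) in Jnk2 KO and -0.32 (SE 0.12, adjusted p = 0.16) in NEMO/Jnk2 DKO. Jnk1 KO exceeded Jnk2 KO by 0.36 (SE 0.12, limma adjusted p = 0.44).

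No basolateral exporter passed as labelled, and Abcc4 was called in NEMO/Jnk1 DKO when the doubted arrays were left out. The level of Abcc4 over the 15 arrays was 4.51 to 5.84, beside a median of all probe sets of 4.26 to 4.38. Abcc4 was at 5.84, 5.50 and 5.13 in NEMO/Jnk1 DKO, at 5.18, 5.04 and 5.04 in NEMO/Jnk2 DKO, at 5.68, 4.72 and 4.51 in Jnk1 KO and at 4.92, 4.77 and 4.93 in Jnk2 KO, against 4.87, 4.88 and 4.96 in WT. Its 3 highest values were those of the 3 female-pattern arrays, and the remaining NEMO/Jnk1 DKO array, at 5.13, and all NEMO/Jnk2 DKO arrays still exceeded WT. NEMO/Jnk1 DKO differed from WT by 0.58 (SE 0.23, limma adjusted p = 0.24), and without the doubted arrays the adjusted p was 0.023. From Jnk1 KO it differed by 0.52 (SE 0.23, limma adjusted p = 0.96), and by 0.88 (SE 0.16, adjusted p = 0.0055) without the doubted arrays. When a sex term joined the fit without the doubted arrays, these differences were 0.23 from WT (adjusted p = 0.62) and 0.52 from Jnk1 KO (adjusted p = 0.19). The pattern term itself, female minus male, was 0.80 for Abcc4 (SE 0.13, limma adjusted p = 0.018), and it was the one transporter for which that term passed. Without the doubted arrays, 1 of which has the female pattern, the term was 0.54 (SE 0.16, adjusted p = 0.75) and did not pass.

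Abcc3, which exports conjugates and bile salts to blood, did not pass in any comparison. It was at 9.36, 9.49 and 9.45 in NEMO/Jnk1 DKO and at 9.23, 9.08 and 9.08 in NEMO/Jnk2 DKO, against 9.14, 9.29 and 8.93 in WT. NEMO/Jnk1 DKO lay above WT in all arrays by 0.31 (SE 0.23, limma adjusted p = 0.53), whereas NEMO/Jnk2 DKO differed by 0.01 (SE 0.23, adjusted p = 0.99). The single knockouts were spread more widely, at 9.67, 8.74 and 9.45 in Jnk1 KO and 9.64, 8.96 and 8.74 in Jnk2 KO.

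Slc51b lay near the median of all probe sets, which was 4.26 to 4.38 over the arrays, and did not pass in any of the 9 comparisons. Slc51a, which encodes the alpha subunit of the same transporter, was at 2.29 to 3.19 over the 15 arrays. Slc51b was at 5.53, 4.67 and 4.90 in NEMO/Jnk1 DKO, at 4.79, 4.79 and 5.08 in NEMO/Jnk2 DKO, at 5.48, 5.02 and 4.84 in Jnk1 KO and at 4.56, 5.13 and 4.33 in Jnk2 KO, against 4.16, 4.70 and 4.41 in WT. The Jnk1 KO and NEMO/Jnk2 DKO arrays lay above all WT arrays. The differences from WT were 0.61 in NEMO/Jnk1 DKO (SE 0.24, limma adjusted p = 0.24), 0.46 in NEMO/Jnk2 DKO (SE 0.24, adjusted p = 0.34) and 0.69 in Jnk1 KO (SE 0.24, adjusted p = 0.86).

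Read by array ranges, more transporters separated from WT than passed the test. In NEMO/Jnk2 DKO relative to WT, 6 of 10 lay wholly lower (Slc10a1, Slco1a1, Slco1a4, Slco1b2, Abcb11 and Abcc2), where 15.9% of all genes did. Another 2 lay wholly higher (Abcc4 and Slc51b), where 11.8% did. NEMO/Jnk1 DKO had 3 wholly lower (Slc10a1, Slco1a1 and Slco1b2), where 14.1% of all genes did, and 3 wholly higher (Abcb4, Abcc3 and Abcc4), where 11.5% did. Against Jnk2 KO, Abcc4 alone was wholly higher in NEMO/Jnk2 DKO, where 5.28% of all genes were, and 0 were wholly lower, where 6.38% were. No transporter separated NEMO/Jnk1 DKO from Jnk1 KO, where 2.52% of all genes lay wholly higher and 4.17% wholly lower. Slco1a4, Abcb11 and Abcc3 were wholly higher in NEMO/Jnk1 DKO than in NEMO/Jnk2 DKO, where 7.12% of all genes were, and 0 were wholly lower, where 5.51% were.

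The single knockouts had no called transporter as labelled. In Jnk2 KO relative to WT, 0 of 10 passed (limma), where 0.411% of all genes did. An unadjusted p under 0.05 was found for 4 of the 10 and for 2416 of 19938 genes. The 4 were Slco1a4, Slco1b2 (-0.57, SE 0.15, adjusted p = 0.12), Abcb11 (-0.49, SE 0.16, adjusted p = 0.23) and Abcc2. In addition to these, Slco1a1 lay wholly below WT, which made 5 of 10, where 10.9% of all genes did so, and 0 lay wholly above, where 6.16% did. In Jnk1 KO relative to WT, 0 of 10 passed (limma), where 0.0100% of all genes did. There 2 had an unadjusted p under 0.05, Slco1b2 (-0.38, SE 0.15, adjusted p = 0.86) and Slc51b, as did 1113 of 19938 genes. Slco1a1 and Slco1b2 lay wholly below WT there, where 6.21% of all genes did, and Slc51b wholly above, where 2.45% did. Without Jnk1 KO replicate 1 and the other doubted array, Slco1b2 was at -0.22 (SE 0.11, limma adjusted p = 0.98) and Slc10a1 at -0.07 (SE 0.11, adjusted p = 0.99), where 0.0150% of all genes passed. Between Jnk1 KO and Jnk2 KO, 0 of 10 passed (limma), where 0.130% of all genes did. There 2 had an unadjusted p under 0.05, Slco1a4 (1.69, SE 0.54, adjusted p = 0.41) and Abcc2, as did 1395 of 19938 genes. Abcc2 was wholly higher in Jnk1 KO than in Jnk2 KO, where 4.50% of all genes were, and 0 were wholly lower, where 3.51% were. For the difference of the NEMO effects, 0 of 10 passed as labelled, where 0% of all genes did. An unadjusted p under 0.05 was then found for 0 of the 10 and for 548 of 19938 genes. Without the doubted arrays 2 had one, Slco1a4 and Abcc4 (0.63, SE 0.22, limma adjusted p = 0.59), as did 1313 of 19938 genes. In that fit 0 of 10 passed, where 0.0100% of all genes did.

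Other genes of the pathway were read from 3 lists, comprising 22 measured other hepatobiliary transporters, 20 regulators and 15 genes of bile acid synthesis. Bile acid synthesis stood lower in NEMO/Jnk2 DKO: 4 of 15 fell relative to WT, where 1.76% of all genes did, and 0 rose. In this comparison 14 were below 0 and the median was -0.43, beside -0.04 over all genes. The 4 were Cyp8b1 (-1.65, SE 0.37, limma adjusted p = 0.034), the 12-alpha-hydroxylase that directs synthesis to cholic acid, and Akr1d1 (-0.64), Akr1c6 (-0.58) and Hsd3b7 (-0.51), which act on the steroid nucleus. Cyp7a1, which catalyses the rate-limiting step, was at 9.41, 8.66 and 9.60 in NEMO/Jnk2 DKO, against 8.57, 9.67 and 10.43 in WT, with overlap. Without the doubted arrays 7 of 15 fell in this comparison, where 4.86% of all genes did. For NEMO/Jnk1 DKO relative to WT 0 of 15 passed as labelled (limma), where 0.0652% of all genes did. The lowest p were those of Cyp7b1 (-2.98, adjusted p = 0.14), which is also on the male-biased list, and Baat (-0.50, adjusted p = 0.14). Without the doubted arrays 4 fell, where 2.99% of all genes did. For NEMO/Jnk1 DKO 13 of 15 were below 0, with a median of -0.26, beside -0.04 over all genes. In Jnk1 KO 11 of 15 were below WT (median -0.11, beside -0.03 over all genes) and in Jnk2 KO 15 of 15 (median -0.33, beside -0.04). In Jnk1 KO 0 passed (limma), where 0.0100% of all genes did, and in Jnk2 KO 0, where 0.411% did. The genes below WT were 7 of 15 in Jnk1 KO and 13 of 15 in Jnk2 KO when the doubted arrays were left out.

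Among the other transporters, Abcb1b, an MDR1 drug efflux pump, rose in both Jnk2-null groups. It was at 6.35, 7.54 and 7.27 in NEMO/Jnk2 DKO and at 6.73, 6.21 and 7.33 in Jnk2 KO, against 3.79, 3.32 and 4.01 in WT. In NEMO/Jnk1 DKO it was at 3.22, 3.79 and 4.27, and in Jnk1 KO at 4.11, 3.73 and 3.82. All 6 Jnk2-null arrays lay above the other 9, the doubted arrays included. Against WT alone, 11.8% of all genes lay wholly higher in NEMO/Jnk2 DKO and 6.16% in Jnk2 KO. The rise over WT was 3.34 in NEMO/Jnk2 DKO (SE 0.34, limma adjusted p = 0.00051) and 3.05 in Jnk2 KO (SE 0.34, adjusted p = 0.0013). It was the 1 of the 22 that rose in each, where 0.873% of all genes rose in NEMO/Jnk2 DKO and 0.166% in Jnk2 KO. NEMO/Jnk1 DKO was lower than NEMO/Jnk2 DKO by 3.29 (SE 0.34, limma adjusted p = 0.00079). Of the 22, 3 fell in NEMO/Jnk2 DKO relative to WT, where 1.76% of all genes did: Abcc6 (-0.65), Slco2b1 (-0.45) and Slc10a5 (-0.45), a relative of the sodium-dependent bile acid carriers. In NEMO/Jnk1 DKO relative to WT 0 of 22 passed as labelled (limma), where 0.0652% of all genes did. Without the doubted arrays 3 rose and 2 fell there, where 4.92% of all genes rose and 2.99% fell. NEMO/Jnk2 DKO then had 4 higher and 7 lower than WT, where 5.75% of all genes rose and 4.86% fell.

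**Figure D4:**
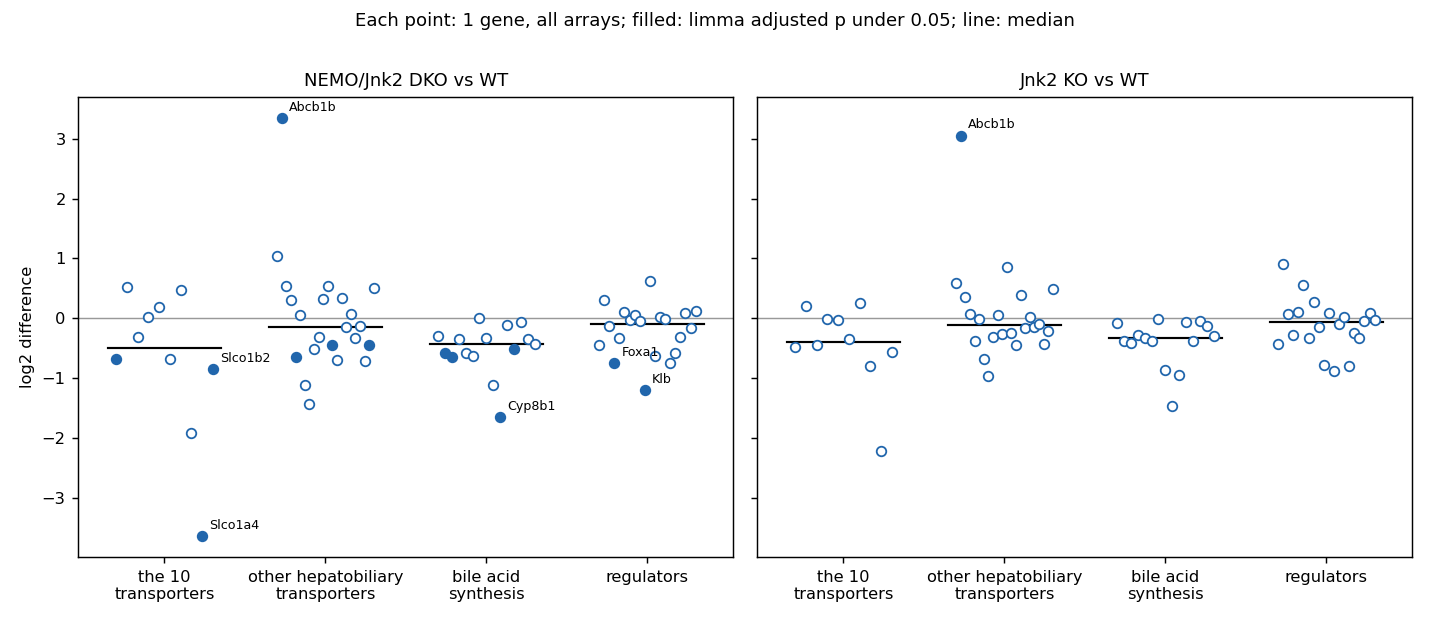
Log2 differences of NEMO/Jnk2 DKO (left) and Jnk2 KO (right) relative to WT for the 10 transporters, 22 other hepatobiliary transporters, 15 genes of bile acid synthesis and 20 regulators, with all arrays; 1 point per gene, filled where limma's adjusted p was under 0.05, and a line at each median. Abcb1b stands at 3.34 in NEMO/Jnk2 DKO and 3.05 in Jnk2 KO, apart from the other genes, and Slco1a4 is the lowest in both panels.

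Of the 20 regulators, 2 fell in NEMO/Jnk2 DKO relative to WT, where 1.76% of all genes did, and 0 rose. Klb (-1.20, SE 0.27, limma adjusted p = 0.038) encodes beta-Klotho, the co-receptor for the gut hormone that represses bile acid synthesis, and Foxa1 (-0.75, SE 0.16, adjusted p = 0.034) is a hepatic transcription factor. Nr1h4 (FXR) was at 8.79, 8.86 and 9.12 in NEMO/Jnk2 DKO and at 8.60, 8.90 and 8.78 in NEMO/Jnk1 DKO, against 9.02, 8.80 and 8.90 in WT, with overlap. Its target Nr0b2 (SHP), a repressor of bile acid synthesis, was at 7.46, 7.25 and 7.48 in NEMO/Jnk2 DKO and at 7.91, 6.96 and 7.01 in NEMO/Jnk1 DKO, against 8.09, 7.99 and 8.00 in WT. In Jnk1 KO it was at 7.42, 7.95 and 6.90, and in Jnk2 KO at 7.12, 7.62 and 6.70. All arrays of the double and of the single knockouts thus lay below WT for Nr0b2, but it did not pass as labelled. Of all genes, 15.9% lay wholly below WT in NEMO/Jnk2 DKO, 14.1% in NEMO/Jnk1 DKO, 6.21% in Jnk1 KO and 10.9% in Jnk2 KO. These comparisons share the WT arrays, and Nr0b2 was chosen after its values were seen. For NEMO/Jnk1 DKO relative to WT 0 of 20 regulators passed as labelled (limma), where 0.0652% of all genes did. The lowest p were those of Foxa1 (-0.63, adjusted p = 0.12) and Nfe2l2 (0.96, adjusted p = 0.16). When the doubted arrays were left out, 1 regulator rose and 5 fell in this comparison, where 4.92% of all genes rose and 2.99% fell. In NEMO/Jnk2 DKO relative to WT 1 then rose and 4 fell, where 5.75% of all genes rose and 4.86% fell. Without the doubted arrays, NEMO/Jnk1 DKO relative to Jnk1 KO had 1 regulator higher, Nfe2l2 (0.89, adjusted p = 0.0030), which encodes the antioxidant activator NRF2, and 2 lower, Cebpa (-0.68) and Ppara (-0.50), where 5.18% of all genes passed. NEMO/Jnk2 DKO relative to Jnk2 KO had Nfe2l2 higher (0.88, adjusted p = 0.0034) and 3 lower, Cebpb (-0.93), Klb (-0.85) and Rxra (-0.40), where 5.85% passed.

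For the transporter of each role with the largest variance, the genes outside the 10 with the most similar profile over the 15 arrays were named, as a description. Slco1a1 was closest to Ces3a (r = 0.979), a carboxylesterase, C8b (r = 0.975), a complement component, and Mup3 (r = 0.973), a major urinary protein. Abcb4 was closest to Plin2 (r = 0.887), a lipid droplet coat protein, and Abi3 and Mmp27 (r = 0.863 for each). Slc51b was closest to Mfsd4a (r = 0.822), Med22 (r = 0.818) and Riok2 (r = 0.805). The 15 arrays of these correlations share the 5 groups, the doubted arrays and the sex pattern.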

How the data were processed

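Whole-liver RNA of 15 mice was measured on Affymetrix arrays, 1 per mouse. The authors deposited log2 expression values per probe set, made by RMA per the submitters' processing notes, whose version is not given in the sources used here; the base of the log was taken as 2 from the range of the values. Of 35556 probe sets, 21789 had 1 gene symbol in the platform annotation, 1621 had several and 12146 were not listed. The probe set with the highest mean was kept for each of 19938 genes. Groups were compared with limma 3.58.1 (R 4.3.3) in 1 fit of 5 group means over the 15 arrays. The same fit was also run on simulated arrays, in which the doubted and female-pattern arrays were not reproduced. P-values were adjusted by Benjamini-Hochberg over all genes, and an adjusted p under 0.05 is called passing. The number of arrays limits the precision. As labelled, each p-value weighs a mean difference against a spread between mice estimated from all 5 groups, the doubted and female-pattern arrays included.

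The transporters and the gene lists were chosen with earlier results of these data known. All 10 transporters are named; of each other list, up to 4 genes that passed with the largest change, or the 2 with the lowest p where none did, and for each role the 3 genes most correlated with its most variable transporter. Cyp7a1, Nr1h4, Nr0b2, Slc51a and the regulators named without the doubted arrays fall outside this rule and were chosen after their values were seen. Alternatives were other samples in the fit, an intensity trend with a robust prior, repeated quantile normalization, centring, a filter on dim probe sets, all probe sets, a replicate block, a sex-pattern term, and arrays left out. Plots used matplotlib 3.10.9 under Python 3.11.15.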

Additional observations from a re-analysis of the deposited data

How the results depend on the processing

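Of the 90 transporter differences (10 transporters in 9 comparisons), 28 were followed singly through the alternatives: those with an unadjusted p under 0.05 as labelled, or past the threshold as labelled or in a fit with the sex term or without the doubted or female-pattern arrays. Of these 0 changed sign, which that choice favours. Of the other 62, 29 changed sign in some setting. The share of all genes called is given in brackets. Arrays left out 1 at a time were only those of the groups compared. The count of transporters called depended on which arrays entered. In NEMO/Jnk2 DKO relative to WT it was 5 with only the arrays compared (9.62%) and 5 without the 3 female-pattern arrays (5.87%), against 3 as labelled (2.63%), and 1 to 2 when 1 array was left out. In NEMO/Jnk1 DKO relative to WT it was 2 with only the arrays compared (6.49%) and 4 without the doubted arrays (7.91%), against 0 (0.0652%). In NEMO/Jnk1 DKO relative to Jnk1 KO it was 3 without the doubted arrays (5.18%), against 0 (0%), and 0 to 1 when 1 array was left out. In NEMO/Jnk2 DKO relative to Jnk2 KO it was 3 without the doubted arrays, without (5.85%) or with (5.76%) the sex term, against 0 (0.00502%). In Jnk2 KO relative to WT it was 1 with the sex term (0.787%) and 1 without the female-pattern arrays (0.808%), against 0 (0.411%). Between the double knockouts the 1 call, Slco1a4, became 0 with only the arrays compared, the intensity trend, all probe sets, the sex term (also without the doubted arrays), and without the female-pattern arrays (0.015% to 0.15%, against 0.105% as labelled), and 0 to 0 when 1 array was left out. Fewer arrays in a fit change the estimate of the spread; the cause was otherwise not tested. Replicate numbers did not pair the samples (4 of 30 same-number pairs had a correlation over 0.1, range -0.39 to 0.30). With the replicate block, 2 transporters were called in NEMO/Jnk2 DKO relative to WT (1.32%), Abcb11 being lost (adjusted p = 0.052), and 1 between the double knockouts. Centring moved the median of all genes by at most 0.02.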
